A study of Mus musculus with 2 samples.

Results

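The genes described here are 7 copies of 3 microRNA (miRNA) families of the nervous system: Mir9-3 and Mir9-2 of the miR-9 family, Mir124a-2, Mir124a-1 and Mir124a-3 of the miR-124 family, and Mir218-2 and Mir218-1 of the miR-218 family. They were chosen by name, and all 7 were found among the 1973 genes of both count tables. The tables come from small RNA sequencing of mouse neural tube, the embryonic forerunner of brain and spinal cord. There is 1 group: healthy embryos of strain B6NCrl at 13.5 days, males and females pooled, with no treatment and no altered allele named in the labels. The group has 2 biological replicates, taken from separate tissue samples. No second condition exists, so copies are compared with each other inside each library, and the spread between the libraries serves as the error.

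A miRNA gene is transcribed as a longer RNA that folds into a hairpin, and the 2 arms of the hairpin are cut out as short mature miRNAs. The bases near the 5′ end of the mature strand, the seed, pair with target mRNAs and lower their output. In the developing nervous system miR-9 is known from neural progenitors, where it acts on regulators such as Hes1, and miR-124 is the hallmark miRNA of neurons, where it represses the splicing regulator Ptbp1. The miRNA miR-218 is known from motor neurons, and its genes lie in introns of Slit genes, which encode secreted guidance cues read by Robo receptors. Several genomic copies can make the same mature miRNA, so a read of the mature strand need not reveal which copy produced it.

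The sequences that decide whether a read can be placed on 1 copy were available for 4 of the 7 genes, from RefSeq on GRCm38.p6, and none are shown for the miR-124 copies. The mature strands are printed first, with the seed (bases 2 to 8) in capitals. The miR-9 arms are made by each miR-9 copy and miR-218-5p by both miR-218 copies, while the 3p arms of miR-218 differ between the copies.
miR-9-5p: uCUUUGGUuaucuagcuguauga
miR-9-3p: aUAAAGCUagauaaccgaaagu
miR-218-5p: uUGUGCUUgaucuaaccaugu
miR-218-2-3p: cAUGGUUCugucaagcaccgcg
miR-218-1-3p: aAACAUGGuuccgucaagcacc

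The hairpins follow, 5′ to 3′, with both mature arms in capitals, to show what surrounds the shared arms. All 4 lie on the plus strand: Mir9-3 at chr7:79505264-79505353, Mir9-2 at chr13:83738814-83738885, Mir218-2 at chr11:35616816-35616925 and Mir218-1 at chr5:48223942-48224051.
Mir9-3: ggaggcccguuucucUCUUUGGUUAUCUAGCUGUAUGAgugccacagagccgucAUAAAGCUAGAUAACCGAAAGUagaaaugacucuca
Mir9-2: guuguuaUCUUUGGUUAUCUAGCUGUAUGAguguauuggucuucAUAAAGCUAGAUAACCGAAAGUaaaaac
Mir218-2: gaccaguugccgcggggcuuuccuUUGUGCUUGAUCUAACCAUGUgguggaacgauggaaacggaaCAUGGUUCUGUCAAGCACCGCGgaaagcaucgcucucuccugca
Mir218-1: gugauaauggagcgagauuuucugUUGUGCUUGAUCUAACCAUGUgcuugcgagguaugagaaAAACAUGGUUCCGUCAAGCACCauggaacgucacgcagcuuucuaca

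Within the miR-9 family, both mature arms occur letter for letter in 3 RefSeq hairpins, those of Mir9-3, Mir9-2 and Mir9-1. Mir9-1 is not analysed here, since no counted gene carried that name. The flanks set Mir9-3 apart from the other two. At the 5′ end of miR-9-5p, 1 further genomic base gives a read that matches the Mir9-3 hairpin alone, while extending that end never separates Mir9-2, since the hairpin of Mir9-1 continues with the same bases up to the end of the Mir9-2 hairpin. At the 3′ end of miR-9-5p the copies are equal, and each needs 4 further bases. For miR-9-3p, Mir9-3 needs 3 further bases at the 5′ end or 2 at the 3′ end, against 7 and 6 for Mir9-2. The Mir9-3 and Mir9-2 hairpins share 62 of 72 aligned bases, with a longest shared run of 26 nt.

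The miR-218 copies are easier to tell apart. Their hairpins share 76 of 107 aligned bases, and their longest shared run is 22 nt, which holds miR-218-5p and 1 flanking base. A read of miR-218-5p with 1 further base at its 5′ end, or 2 at its 3′ end, matches 1 copy only. The arms miR-218-2-3p and miR-218-1-3p, of 22 nt each, occur in no other of the 1005 hairpins searched.

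Counted over windows of 22 nt, 60 of 69 windows of the Mir9-3 hairpin (87.0%) were in no other hairpin at another place, against 27 of 51 for Mir9-2 (52.9%). In Mir218-2 and in Mir218-1, 88 of 89 windows (98.9%) were in no other hairpin. The search covered hairpins only, on both strands, and not the rest of the genome.

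**Figure D1:**
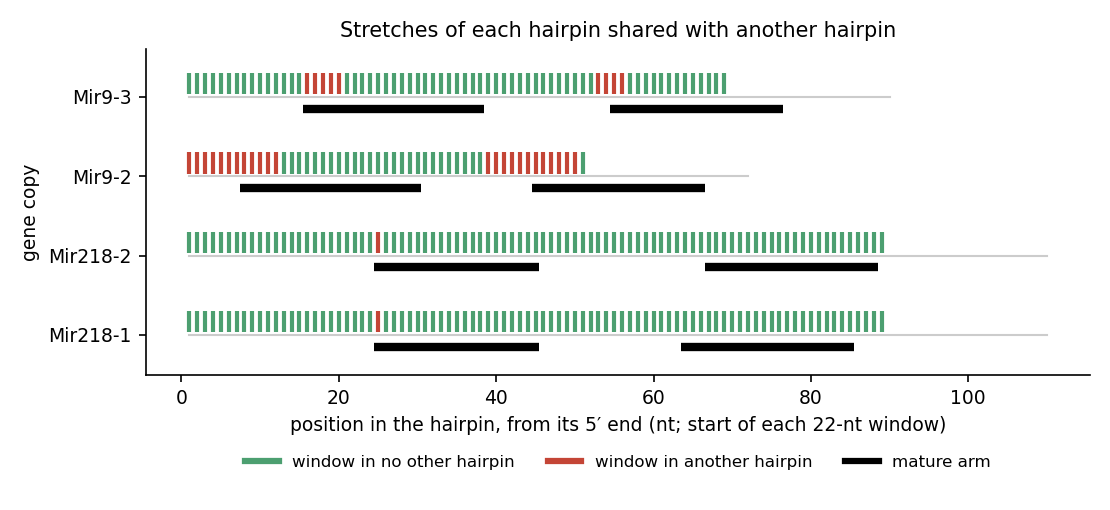
Each bar stands at the start of a 22-nt window of the hairpin (x axis, nt from the 5′ end), green where no other RefSeq hairpin holds the window and red where one does; black lines mark the mature arms. The shared windows of Mir9-3 (9) start at positions 16 to 20 and 53 to 56, where the arms start at 16 and 55, those of Mir9-2 (24) reach from the 5′ end of the hairpin and across its 3p arm, and each miR-218 copy has 1, at the start of miR-218-5p.

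The gene tables hold raw counts, and levels are given here as CPM, the same-strand count of a gene scaled to a library total of 1000000. The totals of same-strand counts on miRNA genes were 7019469 in replicate 1 and 5738209 in replicate 2. Counts were not scaled to hairpin length, since the libraries were made from RNA under 30 nt. Reads that map to several places, 3921182 in replicate 1 and 3310889 in replicate 2, or 28.5% and 31.0% of all reads, were inferred from the layout of the tables to be in no gene's count. Counts of the copies therefore describe reads that could be placed at 1 locus, and are not the abundance of the mature miRNA. The part of the multimapping reads that came from these families was not measured.

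The 7 copies together held 4273 counts in replicate 1 and 3534 in replicate 2, or 612 ± 5.05 CPM (SD, n = 2 libraries). Most of this was Mir9-3, then Mir218-2. At least 10 counts in each library were reached by 4 of the 7 copies (Mir9-3, Mir218-2, Mir218-1 and Mir124a-2), where 18.8% of all 1973 genes reached that level. All 7 had at least 1 count in 1 of the libraries, and 1247 genes of the tables had none in either.

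Of the 2 copies analysed here of the progenitor miRNA miR-9, Mir9-3 was the leading one. Whether it also led over Mir9-1 could not be tested, since no counted gene carried that name. Mir9-3 had 2615 counts in replicate 1 and 2379 in replicate 2, which is 373 and 415 CPM, or 394 ± 29.7 CPM. Mir9-2 had 9 counts in replicate 1 and 3 in replicate 2, which is 1.28 and 0.523 CPM. The 2 libraries thus put Mir9-3 far above Mir9-2, and the 95% counting intervals of the 2 copies did not overlap in either library (358 to 387 CPM for Mir9-3 and 0.586 to 2.43 CPM for Mir9-2 in replicate 1, 398 to 432 and 0.108 to 1.53 CPM in replicate 2).

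The ratio of Mir9-3 to Mir9-2 was 291 in replicate 1 (exact 95% interval 153 to 636) and 793 in replicate 2 (271 to 3848). On the log2 scale this is 8.18 and 9.63, a mean of 8.91 ± 1.02 (SD, n = 2). The libraries' own ratios differ by -1.45 log2 units, replicate 1 minus replicate 2, with an exact interval of -3.97 to 0.56 that includes 0. The order of the copies was the same in both libraries, and the size of the ratio is known only within these wide limits, because it rests on the 9 and 3 counts of Mir9-2. Mir9-3 needs fewer added bases than Mir9-2 at 3 of the 4 arm ends and as many at the 3′ end of miR-9-5p, and the part of sequence sharing in the ratio was not tested.

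Mir9-3 lies in an intron of its long noncoding host gene Mir9-3hg, on the same strand, in GENCODE M21. Mir9-2 lies wholly in an annotated exon of the long noncoding gene C130071C03Rik. RefSeq also annotates miR-9b on the opposite strand of the miR-9 loci. The opposite-strand column was 0 for Mir9-3 and for Mir9-2 in both libraries.

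Mir218-2 was the leading copy of the motor neuron miRNA miR-218. It had 1341 counts in replicate 1 and 995 in replicate 2, which is 191 and 173 CPM, or 182 ± 12.5 CPM. Mir218-1 had 262 and 134 counts, which is 37.3 and 23.4 CPM, or 30.3 ± 9.88 CPM. Every value of Mir218-2 stood above both values of Mir218-1.

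The ratio of Mir218-2 to Mir218-1 was 5.12 in replicate 1 (exact 95% interval 4.48 to 5.87) and 7.43 in replicate 2 (6.19 to 8.96). The mean log2 ratio was 2.62 ± 0.38, or 6.16-fold, a difference larger than the spread between the libraries. Here both copies have distinct 3p arms, and nearly all their windows were in no other hairpin searched. Reads of miR-218-5p alone match both copies, and the part of sequence sharing in the ratio was not tested. Mir218-2 lies in an intron of Slit3 and Mir218-1 in an intron of Slit2, both on the strand of the host. The host transcripts are no rows of these tables, and whether the copies follow them was not tested.

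The split between the miR-218 copies differed between the libraries. Mir218-2 held 83.7% of the miR-218 counts in replicate 1 (Wilson 95% interval 81.8% to 85.4%) and 88.1% in replicate 2 (86.1% to 89.9%), and these intervals do not overlap. The log2 ratio of Mir218-2 to Mir218-1 was lower in replicate 1 by a difference of -0.54 (exact conditional 95% interval -0.87 to -0.21). All intervals cover counting error only, since no molecular identifiers are given and reads may be copies of 1 molecule, and with 1 library on each side the shift has no replicate check.

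The miR-124 copies, which encode the hallmark miRNA of neurons, were at the edge of detection among placed reads. These counts are not the abundance of mature miR-124, and the part of the multimapping reads that came from it was not measured. Mir124a-2 had 31 counts in replicate 1 and 15 in replicate 2, which is 4.42 and 2.61 CPM. Mir124a-1 had 14 and 8 counts, which is 1.99 and 1.39 CPM. Mir124a-3 had 1 and 0 same-strand counts, and a count of 0 in replicate 2 allows a level of up to 0.523 CPM by the limit of 3 counts (the two-sided exact Poisson 95% limit, drawn in the plot of levels, is 0.643 CPM). The 3 genes together had 46 counts in replicate 1 and 23 in replicate 2, or 5.28 ± 1.80 CPM.

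Among them Mir124a-2 had more counts than Mir124a-1 in both libraries. The ratio was 2.21 in replicate 1 (exact 95% interval 1.14 to 4.50) and 1.88 in replicate 2 (0.746 to 5.11), a mean log2 ratio of 1.03 ± 0.17. The interval of replicate 2 includes 1, so at this depth the difference was beyond counting error in replicate 1 alone. Over both libraries the ratio was 2.09 (1.23 to 3.65). Their CPM ranges, 2.61 to 4.42 for Mir124a-2 and 1.39 to 1.99 for Mir124a-1, did not overlap.

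Mir124a-3 was below the other two on its annotated strand. Summed over the libraries, Mir124a-2 had 46 counts to 1 of Mir124a-3, a ratio with an exact interval of 7.85 to 1856, and Mir124a-1 had 22 counts to 1, with an interval of 3.56 to 908. Mir124a-3 was the 1 member with opposite-strand counts, 10 in replicate 1 and 5 in replicate 2. At least 3 such counts in each library were found for 1.12% of the 1973 genes. With both strands counted, the mean log2 ratio of Mir124a-2 to Mir124a-3 was 1.54 and that of Mir124a-1 to Mir124a-3 was 0.51.

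The miR-124 genes lie at chr14:64590657-64590741 (Mir124a-1), chr3:17795662-17795770 (Mir124a-2) and chr2:180894040-180894107 (Mir124a-3), all on the plus strand in GENCODE M21 (GRCm38). Mir124a-1 lies wholly in an annotated exon of its long noncoding host Mir124a-1hg, and 27 of the 109 bases of Mir124a-2 overlap an annotated exon of its host Mir124-2hg. Mir124a-3 overlaps the first 3 bases of the long noncoding gene Gm27032. The identifiers of Mir124a-3 and Mir9-2 carry a newer version in M21 than in the count tables, so their counted intervals may differ from the coordinates given here.

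**Figure D2:**
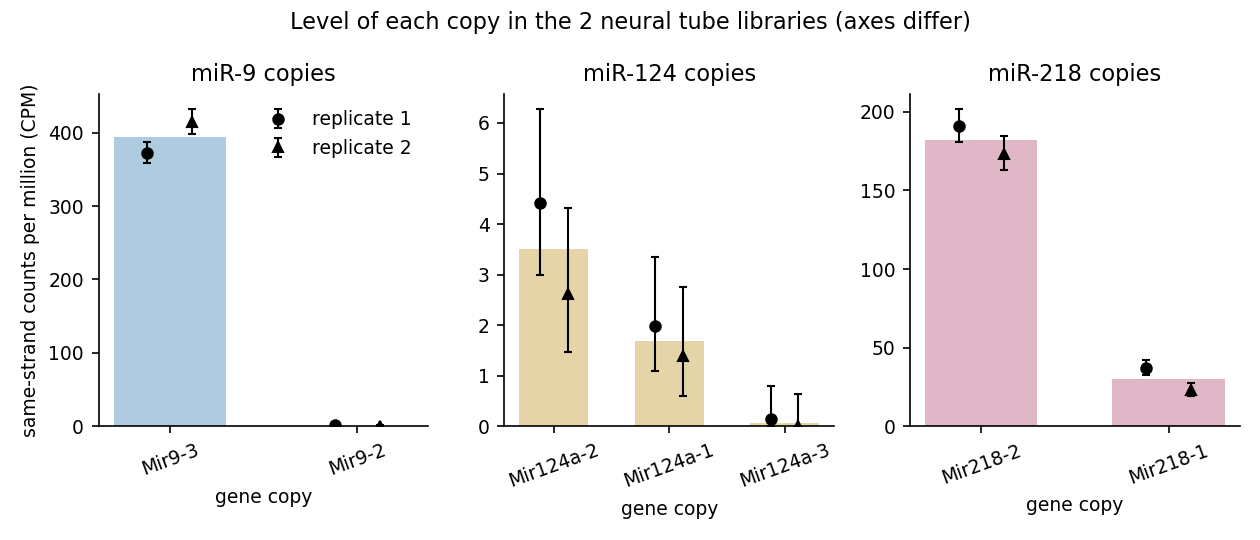
Levels of the 7 copies in CPM, 1 panel per family with its own y axis: bars show the mean of the 2 libraries, circles replicate 1 and triangles replicate 2, with exact Poisson 95% intervals that cover counting error only. Mir9-3 (373 and 415 CPM) stands above Mir9-2 (1.28 and 0.523 CPM), Mir218-2 above Mir218-1, and the miR-124 copies stay below 5 CPM.

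Between families, the summed counts of the copies analysed here were highest for miR-9 (without Mir9-1), then miR-218, then miR-124. The miR-9 copies made up 0.0374% and 0.0415% of the counts in replicates 1 and 2, the miR-218 copies 0.0228% and 0.0197%, and the miR-124 copies 0.000655% and 0.000401%. On the log2 scale miR-9 exceeded miR-218 by 0.71 in replicate 1 and by 1.08 in replicate 2 (mean 0.89 ± 0.26), or 1.86-fold. The miR-218 sum exceeded that of miR-124 by 5.12 and 5.62 log2 units in replicates 1 and 2 (mean 5.37 ± 0.35), or 41.4-fold. Both differences were larger than their spread between the libraries.

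These orders hold for placed reads only. The multimapping reads of a library were 1494 and 1390 times the miR-9 counts in replicates 1 and 2, 2446 and 2933 times the miR-218 counts, and 85243 and 143952 times the miR-124 counts. These ratios divide the same library total by the counts of each family, so they do not show how many reads each family lost. The part of lost reads in the order of the families was not tested.

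Among all genes, the copies covered a wide span of levels. Ranked by mean CPM, Mir9-3 was at place 113, Mir218-2 at 156 and Mir218-1 at 253, followed by Mir124a-2 at 341, Mir124a-1 at 381 and Mir9-2 at 438, the last tied with 2 other genes. Mir124a-3, with 1 count, shared place 688 with 38 other genes. The median of the 371 genes that reached 10 counts in both libraries was 95.1 CPM, so Mir9-3 and Mir218-2 lay above it and the other copies below.

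Genes next to the copies in level were found by mean CPM over the 2 libraries. Mir9-3 stood between Mir132 (394 ± 14.2 CPM), a neuronal miRNA induced by activity, and Mir363 (384 ± 12.6 CPM). Mir218-2 stood between Mir204 (196 ± 65.1 CPM) and Mir383 (178 ± 8.17 CPM). Mir218-1 stood between Mir212 (31.1 ± 4.11 CPM), the cluster partner of Mir132, and Mir34a (30.3 ± 4.20 CPM), a miRNA induced by p53. Mir124a-2 stood between Mir7666 (3.59 ± 0.84 CPM) and Mir6240 (3.44 ± 1.17 CPM). The gaps to these neighbours, from 0.0182 CPM for Mir132 to 13.8 CPM for Mir204, were smaller than the SD of at least 1 of the 2 genes in every case, so the order among neighbours is not resolved.

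**Figure D3:**
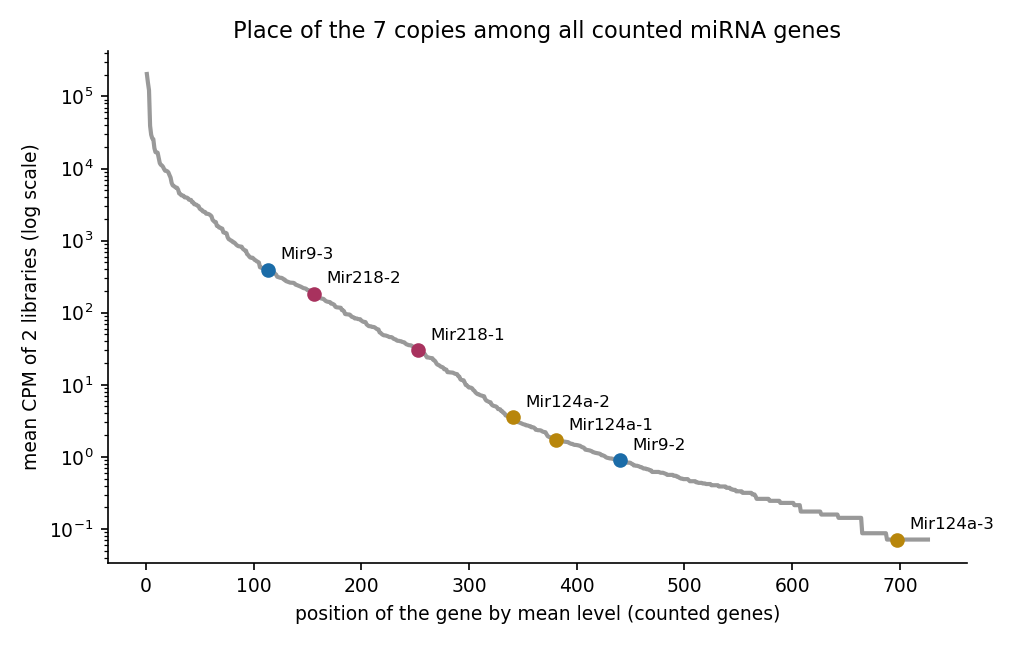
Mean CPM of the 2 libraries (y axis, log scale) against position by level (x axis), for all genes with at least 1 count, with the 7 copies marked and tied genes in order of name. Mir9-3 and Mir218-2 lie in the upper part of the curve, and Mir124a-3 lies on its flat end, where genes have 1 count.

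Other miRNAs of neural cells were set beside the copies, by placed reads. All 13 genes of a neural list reached 10 counts in both libraries, where 18.8% of all 1973 genes did. The list was chosen with earlier results of these data known. Its summed levels were 10526 and 10324 CPM in replicates 1 and 2, with a median gene level of 304 CPM. The highest were Mir137, a neuronal miRNA, at 5096 ± 101 CPM, Mir219a-2, a miRNA of oligodendrocyte differentiation, at 2351 ± 12.9 CPM, and Mir138-1 at 649 ± 156 CPM. By mean CPM, Mir9-3 was below 5 of the 13, by less than the spread in the case of Mir132, and Mir218-2 was below 9. Mir9-2 and the miR-124 copies were below every gene of the list. The mean of Mir218-1 was below all 13 as well, but its 37.3 CPM in replicate 1 exceeded the values of Mir129-2, Mir129-1 and Mir212 there (35.33, 35.05 and 34.05 CPM), so its order against these 3 is not resolved. Mir137 was 12.9-fold above Mir9-3, 28.0-fold above Mir218-2 and 1450-fold above Mir124a-2. These folds compare placed reads and not the abundance of mature miRNAs. Reads of the miR-9 arms and of miR-218-5p match more than 1 copy and may be in no gene's count. For the miR-124 copies no sequence was available, so sharing was not examined, and the same may hold for the 1450-fold value.

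Besides the genes of the neural list, miRNAs of other tissues were counted. The endothelial Mir126a was at 16576 CPM and the 3 mesenchymal genes at 8490 CPM summed. The 3 muscle genes found in the tables had 119 and 378 CPM in replicates 1 and 2, the liver gene Mir122 118 and 30.7 CPM, the 2 red cell genes 62.8 and 35.6 CPM, the leukocyte gene found 156 and 123.7 CPM, and the 2 epithelial genes 506 and 753 CPM. In bulk tissue, fewer cells of a type and less RNA per cell cannot be told apart, and this holds for each level given here.

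The share of a family's counts on its leading copy was set beside the same share in other families. Among the other families whose gene names differ only in the copy number, 20 had at least 100 counts summed, each with 2 copies. Their leading copies held from 51.5% to 99.0% of the counts, with a median of 78.6%. In 19 of the 20 the same copy led in both libraries.

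Mir9-3 held 99.8% ± 0.15 of the counts on Mir9-3 and Mir9-2 (99.7% and 99.9% in replicates 1 and 2), above all 20. The nearest were Mir181b, where Mir181b-2 held 99.0% ± 0.038, Mir196a, where Mir196a-2 held 98.2% ± 0.23, and Mir194, where Mir194-2 held 98.0% ± 0.17. At the other end the copies were close to even: 51.5% ± 3.15 in Mirlet7c, 53.7% ± 5.00 in Mir129 and 55.2% ± 1.504 in Mir125b. Mir218-2 held 85.9% ± 3.16, below 8 of the 20 and above 12, which places the miR-218 split inside the range of other families. The miR-124 copies had too few counts to be ranked; Mir124a-2 held 67.4% in replicate 1 (Wilson 95% interval 53.0% to 79.1%) and 65.2% in replicate 2 (44.9% to 81.2%). With both strands counted, this mean share was 54.5% in place of 66.3%. These are descriptions of the 2 libraries, with no test across families.

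**Figure D4:**
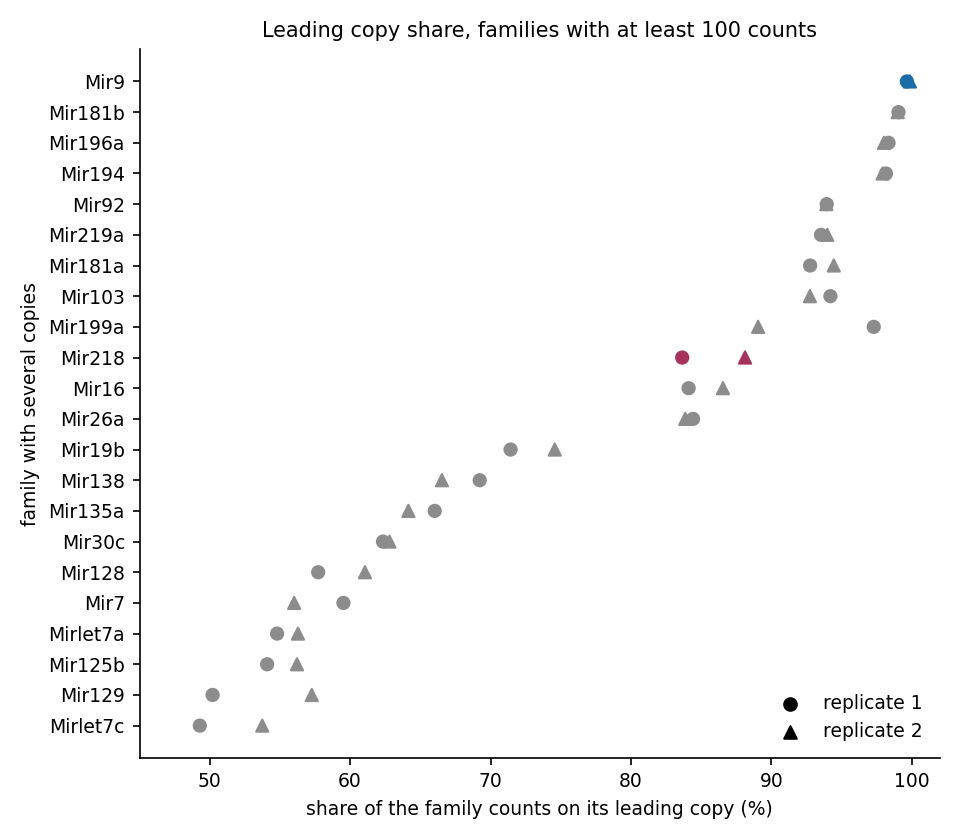
Share of a family's same-strand counts on its leading copy (x axis, percent) in replicate 1 (circles) and replicate 2 (triangles), for the 22 families with several copies and at least 100 counts summed. Mir9 (blue, without Mir9-1) lies at the top at 99.7% and 99.9%, and Mir218 (red) lies in the upper middle at 83.7% and 88.1%.

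Between the libraries, Mir9-3 and Mir218-2 differed little and Mir218-1 differed more. On the log2 scale, replicate 1 over replicate 2, scaled to the same-strand totals with a pseudocount of 0.5, Mir9-3 differed by -0.15 (exact 95% counting interval -0.23 to -0.074), Mir218-2 by 0.14 (0.020 to 0.26) and Mir218-1 by 0.67 (0.37 to 0.99). The median of the 306 genes with at least 100 counts summed was -0.039. Of the 3 copies with that many counts, Mir218-1 exceeded 0.5 log2 units, as did 8.5% of the 306 genes, 4.58% of them higher in replicate 1 and 3.92% lower. With 1 of 3 copies, no more can be read from this share.

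Lower counts made the other copies less certain between libraries. The ratio of replicate 1 to replicate 2 was 1.69 for Mir124a-2 and 1.43 for Mir124a-1, with exact log2 intervals of -0.18 to 1.75 and -0.84 to 1.98, and 2.45 for Mir9-2 with -0.71 to 3.82. All 3 intervals include 0. Some miRNAs of other tissues also differed between the libraries, in both directions. Of the muscle genes, Mir206 had 117 and 373 CPM in replicates 1 and 2, and Mir133b 0.997 and 5.05 CPM. Mir1a-1 of muscle had 3 and 0 counts, too few to compare. The liver gene Mir122 had 118 and 30.7 CPM, and the red cell gene Mir451a 45.2 and 20.4 CPM. The other red cell gene, Mir144, was closer between the libraries, at 17.7 and 15.2 CPM. The part of these genes in the difference of Mir218-1 was not tested.

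**Figure D5:**
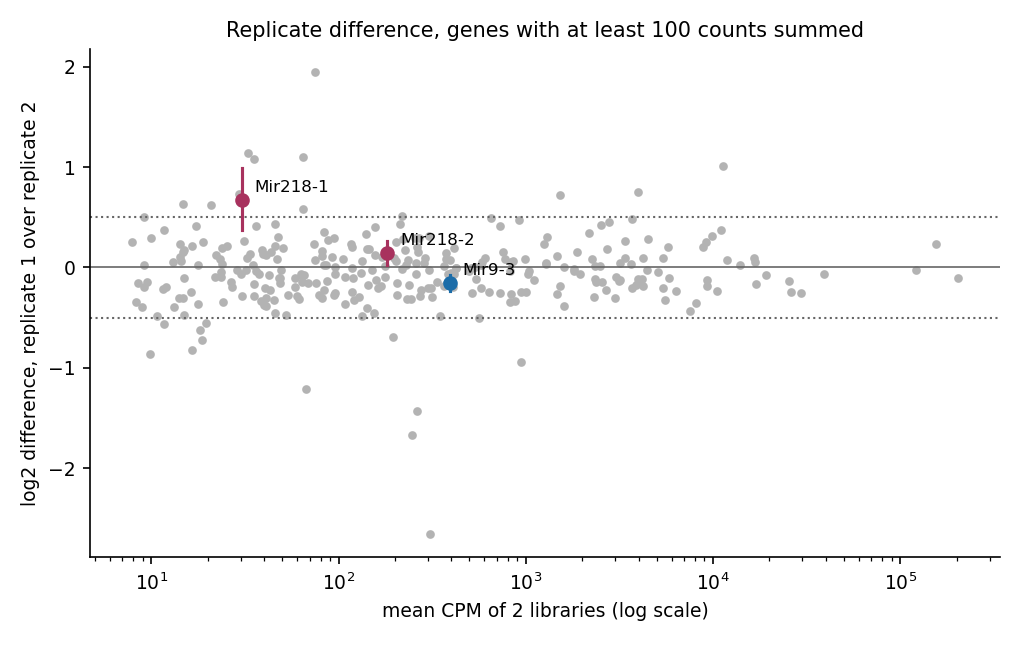
Log2 difference of replicate 1 over replicate 2 (y axis) against mean CPM (x axis, log scale) for the 306 genes with at least 100 counts summed; coloured points are the copies with exact 95% counting intervals, and dotted lines mark 0.5 and -0.5. Mir218-1 lies above the upper line at 0.67, while Mir218-2 and Mir9-3 lie near 0.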

How the data were processed

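Small RNA of mouse neural tube was sequenced in 2 libraries. The authors deposited raw counts for each miRNA gene (mm10, with gene annotation M4, as stated per the file headers); no aligner is named in the sources used here. Of the 3 count columns, the second was used as the same-strand count, inferred from the values. CPM, ratios and shares were computed from it. Names, coordinates and hosts came from GENCODE M21 (1894 of 1973 identifiers matched without version). Sequences came from the RefSeq table. No genome was searched, so windows were compared with 1005 hairpins, leaving out hairpins at the same locus.

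The 7 genes and the lists were chosen with earlier results of these data known. Named genes are the 7 copies, their neighbours in level above 10 counts in each library, the 3 highest of the neural list, and the 3 highest and 3 lowest families by leading share. Errors are SDs of 2 libraries. No p-value was computed. Intervals are exact Poisson, Clopper-Pearson, Wilson or conditional, at 95%. Python 3.11.15, scipy 1.17.1 and Biopython 1.88 were used, with TMM from edgeR 4.0.16 and size factors from DESeq2 1.42.0 (R 4.3.3) as alternatives. The procedures were tested on simulated data.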

Additional observations from a re-analysis of the deposited data

Results flagged for a closer look

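Counts on the strand opposite to a gene were not used for the levels. Mir124a-3 had 10 of them in replicate 1 and 5 in replicate 2, 15 summed, above the 3 counts that a count of 0 allows, and more than its 1 same-strand count. At least 3 opposite-strand counts in each library were found for 1.12% of the 1973 genes, and more opposite-strand than same-strand counts in each library for 0.71%. The other 6 copies had 0.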

How the results depend on the processing

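No paired analysis was possible because there is 1 group. No value changed direction under the alternatives run. With the total taken without Mir10a, the miR-9 copies stood at 496 CPM and the miR-218 copies at 267 CPM. With the multimapping reads added to the total, the miR-9 copies stood at 252, the miR-218 copies at 136 and the miR-124 copies at 3.37 CPM. Both shifts follow from the changed total. With unstranded counts the mean log2 ratio of Mir124a-2 to Mir124a-3 was 1.54 and that of Mir124a-1 to Mir124a-3 was 0.51, in place of 4.95 and 3.81 from replicate 1, and Mir124a-2 held 54.5% of the miR-124 counts, since the opposite-strand counts of Mir124a-3 are then included. A minimum of 10 counts in each library in place of 100 summed put 49 of 371 genes beyond 0.5 log2 units, against 26 of 306. A minimum of 1 count in each library gave 589 detected genes in place of 371. TMM factors and DESeq2 size factors moved the family levels by no more than the SD of the libraries. Such factors cancel in a copy ratio and were not run for it. A pseudocount of 0.5 moved the other copy ratios by no more than that SD. It kept the ratios to Mir124a-3 inside the exact interval of replicate 1. Leaving out a replicate was not run for these ratios, as Mir124a-3 had 0 counts in replicate 2. With 2 libraries, leaving out 1 gives the value of the other and always stays within the SD, so it is no check of stability. The log2 ratio of Mir9-3 to Mir9-2 was 8.18 to 9.63 in the single libraries and that of Mir218-2 to Mir218-1 was 2.36 to 2.89. With windows of 18 nt, 76.7% of Mir9-3 and 41.8% of Mir9-2 windows were in no other hairpin, and with 26 nt 98.5% and 66.0%. Mir9-2 and the miR-124 copies rest on 1 to 31 counts in each library, or 0 for Mir124a-3 in replicate 2, which limits their precision.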

Other observations

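The other neuronal families with several copies had more even splits than the analysed copies of miR-9 and miR-218. Mir138-1 held 67.9% ± 1.90 (SD, n = 2) of the Mir138 counts, Mir128-1 59.4% ± 2.35 of the Mir128 counts and Mir129-2 53.7% ± 5.00 of the Mir129 counts. Mir128-1 and Mir128-2 stood at 380 ± 28.4 and 259 ± 5.95 CPM, and Mir138-1 and Mir138-2 at 649 ± 156 and 304 ± 47.0 CPM. The oligodendrocyte family Mir219a was the exception among the neural list, with 93.8% ± 0.31 of its counts on Mir219a-2. These families were set side by side after their values were seen, and the differences between families were not tested.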
